A study of Homo sapiens with 6 samples.

Results

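The genes described here are 10 ligands and receptors of the tumor necrosis factor (TNF) superfamily, chosen by gene symbol from the 17100 transcripts of the deposited table. All 10 symbols were found, each on 1 transcript. The ligands were TNF, TNFSF10, TNFSF15 and LTB, and the receptors were FAS, TNFRSF10A, TNFRSF10B, TNFRSF10D, TNFRSF1B and TNFRSF9. RNA came from MDA-MB-231, an established human breast adenocarcinoma cell line that lacks the hormone receptors. There were 3 libraries labelled vehicle and 3 of cells exposed to guadecitabine (SGI-110) at 1 µM over 96 h and harvested after a further 24 h without the drug. Guadecitabine releases decitabine, which is built into DNA and traps DNA methyltransferases, so that methylation is lost as cells divide. The vehicle itself is not named in the labels, and both groups are 1 cell line grown in culture. The libraries came from 3 independent experiments per the methods of the study.

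TNF superfamily ligands are made as trimers at the cell surface, and proteases release some of them. Their receptors fall into types. Death receptors such as FAS and the TRAIL receptors TNFRSF10A and TNFRSF10B carry a death domain that recruits the adaptor FADD and caspase-8. Decoy receptors such as TNFRSF10C and TNFRSF10D bind ligand without a working death domain. Receptors without a death domain, such as TNFRSF1B and TNFRSF9, recruit TRAF proteins and activate NF-κB. Many TNF superfamily genes are themselves NF-κB targets, and TNF, LTB and TNFRSF9 are best known from leukocytes, so the set is broader than ligands and receptors of cell death alone.

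The vehicle libraries held 17602570 to 22277442 counts and the guadecitabine libraries 8792127 to 21410849, with the least in guadecitabine replicate 2. Vehicle replicate 3 stood apart, since only 20 of its transcripts had no count, while the other two vehicle libraries had 2498 and 2517 such transcripts and the guadecitabine libraries 1593 to 2090. On 533 genes that were silent or nearly so (1 count or none) in the other two vehicle libraries and had at least 11 counts over the guadecitabine libraries, its median was 16 counts. Fold changes of the genes described that moved by more than 1.5 times on leaving it out are also given without it. The defining markers of the line were present, with VIM, CD44, AXL, EGFR and KRT18 summing to between 106802 and 138374 counts normalized for library size in each library. ESR1, PGR and CDH1 summed to between 12.2 and 36.2, except for 152 in vehicle replicate 3.

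Of the 10 genes, 9 were higher after guadecitabine, 0 were lower and 1 (TNFRSF10D) did not pass the test (edgeR's quasi-likelihood test, adjusted p under 0.05 with Benjamini-Hochberg adjustment over 13322 genes). Of all genes tested, 37.7% passed in either direction, 19.3% higher and 18.4% lower. The same 9 genes had all 3 guadecitabine libraries above all 3 vehicle libraries, which held for 26.6% of all genes tested, while 25.0% had all of them below. The median log2 fold change of the 10 genes was 1.79, against 0.02 over all genes tested. Of the 10, 7 were called and at least 2-fold higher, against 6.65% of all genes tested. The 10 genes, and the lists below, were chosen with earlier results of these data known. Their shares beside those of all genes are therefore descriptive only and may reflect the choice. All 10 passed the filter on low counts. TNF, counted above among the 9 and the 7, passed it only through its guadecitabine libraries, where it is high. In bulk RNA, more cells expressing a gene and more RNA per cell cannot be told apart.

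**Figure D1:**
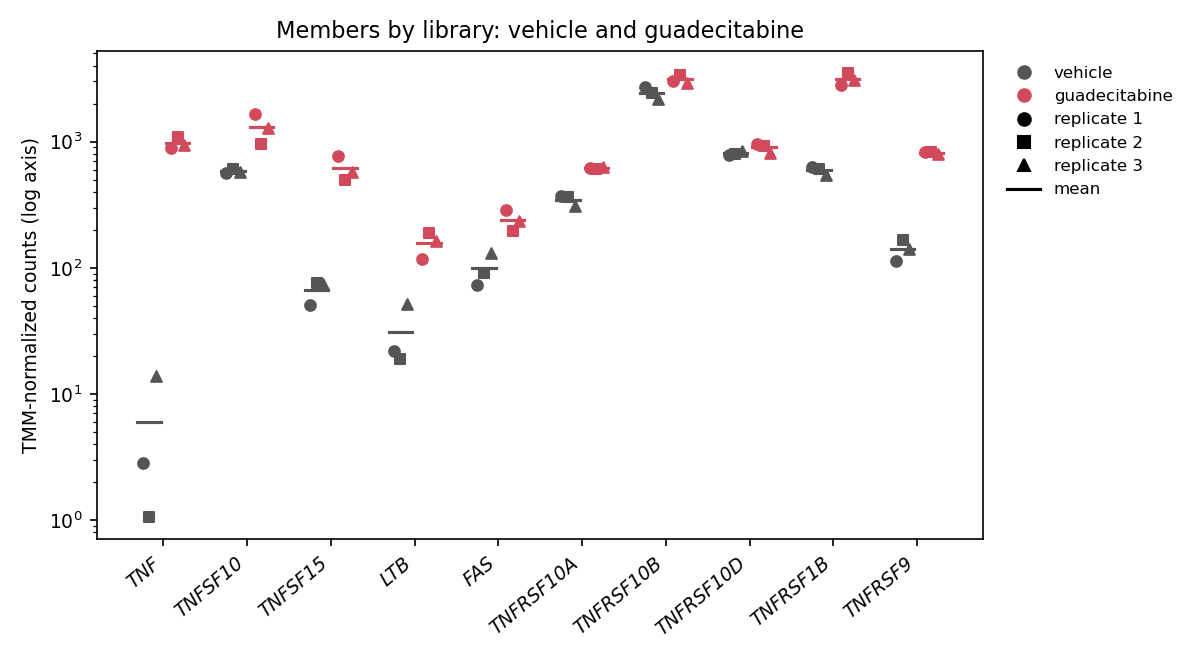
Normalized counts (TMM scaling to the mean library total, log axis) of the 10 genes in each library, vehicle in grey and guadecitabine in red, with replicates 1, 2 and 3 as circles, squares and triangles and group means as lines. TNF went from between 1.06 and 13.9 in vehicle to between 889 and 1083, while the groups overlapped only for TNFRSF10D.

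TNF, the prototype inflammatory ligand of the family, was close to undetected in vehicle cells. It had 3, 1 and 18 counts in vehicle replicates 1, 2 and 3 and 1098, 532 and 939 counts in guadecitabine replicates 1, 2 and 3. The highest vehicle count was in vehicle replicate 3, the library with counts on otherwise silent genes. Scaled by TMM to the mean library total of 17911210, the scale called normalized counts throughout, the level went from 5.94 ± 6.96 to 973 ± 99.3 (SD, n = 3). The log2 fold change was 7.17 (SE 0.379, edgeR adjusted p = 1.96e-06), or 144-fold, a size reached by 24 of the tested genes, or 0.18% of them. Without vehicle replicate 3 the log2 fold change was 8.83. That library's median level on otherwise silent genes corresponds to 11.9 counts over the length of TNF. Vehicle replicate 2 lay under the floor of detection of 3 counts set for a library, which covers counting error only.

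LTB encodes lymphotoxin beta, which anchors lymphotoxin alpha at the membrane and signals through LTBR. It had 23, 18 and 67 counts in vehicle replicates 1, 2 and 3 and 146, 93 and 161 after guadecitabine. The groups did not overlap after scaling, with 51.7 normalized counts in the highest vehicle library and 118 in the lowest guadecitabine library. LTB rose from 30.9 ± 18.1 to 157 ± 35.9 normalized counts (SD, n = 3), which gave a log2 fold change of 2.298 (SE 0.383, edgeR adjusted p = 0.00162). The log2 fold change was 2.90 without vehicle replicate 3, in which the 67 counts exceeded the 6.34 counts that its median level on silent genes gives for this length.

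TNF and LTB are neighbours. On hg19 (GRCh37), TNF lies on chromosome 6 from 31543344 to 31546112 on the plus strand and LTB from 31548336 to 31550202 on the minus strand, 2223 bp away. LTA, which encodes lymphotoxin alpha, lies on the other side of TNF from 31539876 to 31542100, with 1243 bp between them. LTA had 0, 3 and 13 counts in vehicle replicates 1, 2 and 3 and 380, 174 and 346 after guadecitabine. It rose with a log2 fold change of 6.10 (edgeR adjusted p = 2.05e-05), or 7.68 without vehicle replicate 3. All 3 genes of the locus therefore had every guadecitabine library above every vehicle library, as did 26.6% of all genes tested. TNF and LTA passed the filter on low counts only through the guadecitabine libraries. None of the stretches of 50 bases of these 3 transcripts occurs in another annotated transcript, so their counts are not shared with a near-identical copy.

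TNFSF15, a ligand of the death receptor TNFRSF25 made by endothelial cells among others, lies on chromosome 9 from 117546915 to 117568408 on the minus strand. It had 53, 72 and 97 counts in vehicle replicates 1, 2 and 3 and 948, 244 and 571 after guadecitabine. Normalized, the vehicle libraries spanned 50.5 to 76.0 and the guadecitabine libraries 497 to 768, with guadecitabine replicate 1 the highest. The means were 67.1 ± 14.4 and 614 ± 139 (SD, n = 3), which gave a log2 fold change of 3.20 (SE 0.216, edgeR adjusted p = 8.99e-06). TNFRSF25 itself was low and did not pass the test (log2 fold change -0.32).

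TNFSF10, on chromosome 3 from 172223298 to 172241297 on the minus strand, encodes TRAIL, the ligand that kills many tumor cells through TNFRSF10A and TNFRSF10B. Unlike TNF it was well expressed before treatment, with 591, 577 and 744 counts in vehicle replicates 1, 2 and 3, and it had 2060, 469 and 1268 counts after guadecitabine. The 469 counts belong to the smallest library and correspond to 955 normalized counts, still above the highest vehicle value of 609. TNFSF10 rose from 582 ± 24.1 to 1301 ± 357 normalized counts (SD, n = 3), which gave a log2 fold change of 1.17 (SE 0.182, edgeR adjusted p = 0.00112). Its guadecitabine libraries had the widest spread of the ligands in absolute terms, with 1668 in replicate 1.

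The start regions of the genes differ in their CpG dinucleotides, the sites that DNA methyltransferases modify. Windows of 250 bases before and 50 bases after the deposited transcript start were read from GRCh37. TNF had 11 CpG in its window, FAS 9, TNFRSF9 3, and TNFSF10, TNFSF15 and LTB 2 each, while TNFRSF1B had 29, TNFRSF10A and TNFRSF10B 21 each and TNFRSF10D 16. The median over 17093 windows was 22, above 9 of the 10 genes, and 70.0% of windows had no more CpG than TNFRSF1B, against 27.7% for TNF and 7.41% for the 3 ligands with 2. Methylation of these sites was not measured in the libraries. The 250 bases upstream of the start are shown for both members of the chromosome 6 locus and, as the contrasting CpG-rich case, TNFRSF1B, each 5′ to 3′ on the gene's strand with every CpG in capitals. They are chr6:31543094-31543343 on the plus strand for TNF, with 10 CpG, chr6:31550203-31550452 on the minus strand for LTB, with 2, and chr1:12226810-12227059 on the plus strand for TNFRSF1B, with 22.
TNF: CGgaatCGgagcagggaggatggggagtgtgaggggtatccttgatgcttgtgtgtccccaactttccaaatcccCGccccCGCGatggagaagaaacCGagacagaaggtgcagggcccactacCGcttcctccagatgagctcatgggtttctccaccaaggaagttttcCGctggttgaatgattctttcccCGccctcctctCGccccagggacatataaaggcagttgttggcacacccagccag
LTB: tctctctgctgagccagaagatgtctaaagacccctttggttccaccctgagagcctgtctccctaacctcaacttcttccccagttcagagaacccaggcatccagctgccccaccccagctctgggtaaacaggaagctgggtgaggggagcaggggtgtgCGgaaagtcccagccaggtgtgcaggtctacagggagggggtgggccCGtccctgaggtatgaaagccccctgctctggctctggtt
TNFRSF1B: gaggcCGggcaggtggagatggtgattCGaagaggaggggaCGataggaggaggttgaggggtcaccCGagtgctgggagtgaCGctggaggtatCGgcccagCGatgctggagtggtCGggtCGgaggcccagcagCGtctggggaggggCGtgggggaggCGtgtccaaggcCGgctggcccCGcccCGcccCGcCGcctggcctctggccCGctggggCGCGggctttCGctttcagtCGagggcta

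Matches to the consensus of the NF-κB binding site (κB) were searched in the same windows on both strands. They were found in 12.9% of all windows and in 3 of the 10 genes, with 2 in LTB and 1 each in TNFSF15 and FAS. The interferon-stimulated response element, searched as a pair of GAAA motifs 2 bases apart on either strand, was found in 3.09% of windows, and in TNFSF10 and TNFRSF1B of the 10 genes. The AP-1 motif, TGAGTCA or TGACTCA, was found in 3.43% of windows and in 0 of the 10. The match of TNFRSF1B lies near the end of the stretch printed above, and the second match of LTB lies after the start and is not printed. The others are shown 5′ to 3′ on the gene's strand with the match in capitals, for LTB at chr6:31550264-31550303, TNFSF15 at chr9:117568592-117568631 and FAS at chr10:90750199-90750238 for κB and for TNFSF10 at chr3:172241383-172241422 for the interferon element. These are matches of letters and were not tested for binding.
LTB: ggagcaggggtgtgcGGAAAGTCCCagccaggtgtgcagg
TNFSF15: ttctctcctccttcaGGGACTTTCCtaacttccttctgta
FAS: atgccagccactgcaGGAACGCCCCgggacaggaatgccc
TNFSF10: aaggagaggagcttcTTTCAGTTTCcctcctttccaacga

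The start deposited for TNFRSF9 lies 2326 bp from the start in the RefSeq promoter table. In that table's window a κB match and, starting 30 bases further on, an AP-1 match occur together, where 10.8% and 4.92% of its 27305 windows hold a match to each. The stretch is shown from chr1:8000949-8000988 on the minus strand with the κB match in capitals. RefSeq also starts TNFSF15 at a distance of 13598 bp and FAS at 267 bp, so their windows depend on the start that is taken. At the RefSeq starts neither of them had a κB match, TNFSF15 had an AP-1 match, and the CpG counts were 18 for FAS, 8 for TNFRSF9 and 3 for TNFSF15. The median over the windows of the RefSeq table was 14 CpG, below the counts of FAS and of TNFRSF1B, which had 27. That table gave no window for TNFRSF10A, TNFRSF10B or TNFRSF10D. TNF had 11 CpG there, and 47.1% of those windows had no more. The place of a gene beside the median thus depends on the set of starts.
TNFRSF9: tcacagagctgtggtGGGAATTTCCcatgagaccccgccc

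FAS, a death receptor and the receptor of FAS ligand, lies on chromosome 10 from 90750288 to 90775542 on the plus strand. It had 77, 86 and 171 counts in vehicle replicates 1, 2 and 3 and 357, 96 and 231 after guadecitabine. Scaled, the highest vehicle library, replicate 3, had 132 and the lowest guadecitabine library, replicate 2, had 195, so that the groups did not overlap. The means were 98.7 ± 30.2 and 239 ± 47.1 normalized counts (SD, n = 3), which gave a log2 fold change of 1.28 (SE 0.240, edgeR adjusted p = 0.00307), or 1.56 without vehicle replicate 3. The library kit does not mark strand, and of the 3562 exon bases annotated for FAS, 380 overlap exons of ACTA2 and 917 those of an unnamed gene (ENSG00000286116), both on the opposite strand. Reads there cannot be told apart from FAS reads. FASLG, the gene of its ligand, had 1, 0 and 16 counts in vehicle replicates 1, 2 and 3 and 8, 0 and 0 after guadecitabine and was left out of the test by the filter.

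The 4 TRAIL receptor genes lie side by side within 205033 bp on chromosome 8. TNFRSF10A and TNFRSF10B passed the test as higher and the decoys did not. This does not separate the 2 types, since TNFRSF10B passed narrowly with a log2 fold change of 0.35 and the decoy TNFRSF10C had 0.76. TNFRSF10A had 390, 342 and 398 counts in vehicle replicates 1, 2 and 3 and 759, 300 and 625 after guadecitabine. Its libraries lay close together after scaling, from 307 to 371 in vehicle and from 611 to 631 after guadecitabine. It rose from 347 ± 34.4 to 619 ± 10.8 normalized counts (SD, n = 3), which gave a log2 fold change of 0.84 (SE 0.112, edgeR adjusted p = 0.000457). Exons of TNFRSF10A-AS1 and TNFRSF10A-DT on the opposite strand cover 224 and 266 of its 2927 annotated exon bases.

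TNFRSF10B, the other TRAIL death receptor, had 2861, 2312 and 2804 counts in vehicle replicates 1, 2 and 3 and 3724, 1667 and 2912 after guadecitabine. The highest vehicle library had 2725 normalized counts and the lowest guadecitabine library 2940, so the groups were close but did not overlap. The means were 2444 ± 280 and 3116 ± 243 (SD, n = 3), which gave a log2 fold change of 0.35 (SE 0.118, edgeR adjusted p = 0.0426). This call was lost in 9 of 13 alternative analyses, among them the fit without vehicle replicate 3 (log2 fold change 0.27, edgeR adjusted p = 0.0973). It was also lost when tested against a 2-fold change, which is not among the 13. Exons of RHOBTB2 on the opposite strand cover 377 of its 5010 annotated exon bases.

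The decoy TNFRSF10D had 828, 758 and 1095 counts in vehicle replicates 1, 2 and 3 and 1185, 457 and 799 after guadecitabine. Guadecitabine replicate 3, with 807 normalized counts, lay among the vehicle libraries, which spanned 789 to 846. The log2 fold change was 0.15 (SE 0.107, edgeR adjusted p = 0.316), from 812 ± 30.1 to 899 ± 81.1 normalized counts (SD, n = 3). TNFRSF10C, the decoy held at the membrane by a lipid anchor, had 45, 34 and 44 counts in vehicle and 73, 35 and 61 after guadecitabine (log2 fold change 0.76, edgeR adjusted p = 0.0845). Without vehicle replicate 3 it passed the test (log2 fold change 0.68, edgeR adjusted p = 0.0441). Of its stretches of 50 bases, 32.2% are shared with annotated neighbours, so its counts are uncertain.

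The balance of the TRAIL receptors was compared within libraries, as each receptor's share of their summed reads per kb of counted exon. The death receptors TNFRSF10A and TNFRSF10B together held 77.4, 76.0 and 72.7% in vehicle replicates 1, 2 and 3 and 77.3, 78.6 and 79.5% after guadecitabine. The means were 75.4 ± 2.41% and 78.5 ± 1.08% (SD, n = 3), and the groups overlapped (difference 3.11 percentage points, exact permutation test, two-sided p = 0.2). The difference was 1.78 percentage points without vehicle replicate 3, and it reached 4.13 without vehicle replicate 1. With 3 libraries against 3 the smallest p this test allows is 0.1. The share of TNFRSF10A rose above every vehicle value, from a mean of 18.5% to 24.6% (exact permutation p = 0.1). TNFRSF10D went from 21.5% to 17.6% and TNFRSF10C from 3.11% to 3.93%, also without overlap (exact permutation p = 0.1 for each). TNFRSF10B went from 56.9% to 53.9% with overlap (exact permutation p = 0.2). These 4 shares add up to the whole and are not independent of each other.

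**Figure D2:**
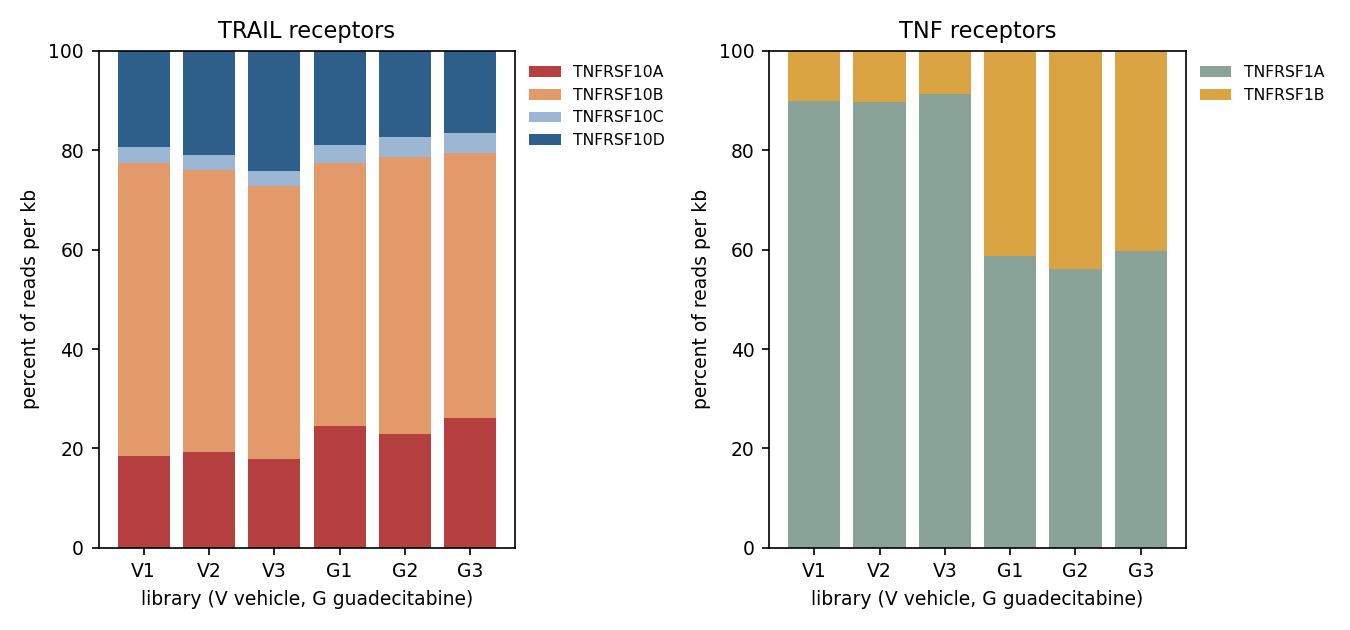
Share of reads per kb of counted exon in each library (V vehicle, G guadecitabine, replicates 1 to 3), for the TRAIL receptors on the left and the TNF receptors on the right, in percent. TNFRSF1B took 8.80 to 10.4% of TNF receptor reads per kb in vehicle and 40.2 to 43.98% after guadecitabine, while TNFRSF10A and TNFRSF10B together stayed between 72.7 and 79.5% of the TRAIL receptors.

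TNFRSF1B, the TNF receptor without a death domain, rose 5.26-fold. The gene lies on chromosome 1 from 12227060 to 12269277 on the plus strand. It had 665, 571 and 702 counts in vehicle replicates 1, 2 and 3 and 3453, 1721 and 3039 after guadecitabine. All vehicle libraries lay between 542 and 633 normalized counts and all guadecitabine libraries between 2796 and 3503. It rose from 593 ± 46.4 to 3122 ± 357 (SD, n = 3), which gave a log2 fold change of 2.40 (SE 0.125, edgeR adjusted p = 1.86e-06). TNFRSF1A, the TNF receptor with a death domain, had 3619, 3016 and 4450 counts in vehicle and 2997, 1341 and 2766 after guadecitabine, and it fell by 0.34 on the log2 scale (edgeR adjusted p = 0.0265), a call lost in 6 of 13 alternative analyses. TNFRSF1B went from 9.76 ± 0.843% to 41.8 ± 1.94% (SD, n = 3) of the reads per kb of both receptors, a difference of 32.1 percentage points without overlap (exact permutation test, two-sided p = 0.1, the smallest possible).

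TNFRSF9, on chromosome 1 from 7975931 to 8003225 on the minus strand, encodes a costimulatory receptor of activated T cells. It had 119, 156 and 183 counts in vehicle replicates 1, 2 and 3 and 1031, 405 and 789 after guadecitabine. The vehicle libraries spanned 113 to 165 normalized counts and the guadecitabine libraries only 797 to 835. It rose from 140 ± 25.7 to 819 ± 19.7 (SD, n = 3), which gave a log2 fold change of 2.55 (SE 0.143, edgeR adjusted p = 2.74e-06). TNFSF9, the gene of its ligand, rose less, with a log2 fold change of 0.53 (edgeR adjusted p = 0.0253), and its call was lost in 6 of 13 alternatives, among them the fit without vehicle replicate 3 (0.49, edgeR adjusted p = 0.0514).

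Because TNF, LTB and TNFRSF9 are leukocyte genes, a list of 15 leukocyte markers was read beside them, of which 11 were in the table. Their summed level was 427 to 588 normalized counts in vehicle and 313 to 346 after guadecitabine, most of it from CSF1R and CD14. CSF1R went from a mean of 252 to 101 normalized counts and accounted for the lower sum, while CD14 had means of 163 and 178 and did not pass the test (edgeR adjusted p = 0.618). CD2 and MS4A1 were at 0 in every library but vehicle replicate 3. PTPRC, the pan-leukocyte marker, had 0, 2 and 36 counts in vehicle replicates 1, 2 and 3 and 3, 0 and 2 after guadecitabine.

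Levels were compared between genes as normalized reads per kb of counted exon. In vehicle, TNFRSF10B was highest with 611 ± 69.9 (SD, n = 3), followed by TNFSF10 with 298 ± 12.4, TNFRSF10D with 229 ± 8.52, TNFRSF10A with 198 ± 19.7 and TNFRSF1B with 163 ± 12.8, and no neighbours in this order overlapped over the libraries. FAS with 37.6 and LTB with 34.6 overlapped, as did LTB and TNFRSF9 with 23.3, and TNFSF15 with 10.0 and TNF with 3.55. After guadecitabine TNFRSF1B had 858 ± 98.0, TNFRSF10B 779 ± 60.6, TNFSF10 666 ± 183 and TNF 581 ± 59.3, and each overlapped the next, so that TNF had moved from the last of the 10 to the group of the 4 highest. TNFRSF10A with 354 ± 6.18 and TNFRSF10D with 254 ± 22.9 were separate from their neighbours. LTB with 175 and TNFRSF9 with 137 overlapped, as did TNFSF15 with 91.7 and FAS with 91.1.

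Beyond these genes, 8 other ligands of the superfamily passed the filter. Of these, 3 were higher (LTA, CD70 and TNFSF9), 2 lower (TNFSF12 and EDA) and 3 did not pass the test. Their median log2 fold change was 0.54. The shares were 37.5% higher and 25% lower, against 19.3% and 18.4% of all genes tested. TNFSF12, a ligand of TNFRSF12A that is widely expressed outside the immune system, had 643, 600 and 726 counts in vehicle and 180, 101 and 170 after guadecitabine. It fell by 1.81 on the log2 scale (edgeR adjusted p = 2.26e-05), so the ligands did not all move one way. CD70 had 0, 0 and 7 counts in vehicle and 35, 20 and 43 after guadecitabine (log2 fold change 4.14, edgeR adjusted p = 0.0098). Without vehicle replicate 3, which held all of its vehicle counts, the log2 fold change of CD70 was 8.12. No vehicle counts are left in that fit, so 8.12 does not measure the size of the change. Without guadecitabine replicate 3 the call of CD70 was lost. EDA had 22, 21 and 41 counts in vehicle and 8, 0 and 7 after guadecitabine, and its call was lost or had no value in 8 of 13 alternatives. TNFSF4, with a log2 fold change of 1.03 (edgeR adjusted p = 0.064), passed without vehicle replicate 3 (1.20, edgeR adjusted p = 0.0144).

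Of 16 other receptors tested, 2 were higher (CD40 and TNFRSF6B), 1 was lower (TNFRSF1A) and 13 did not pass the test. Their median log2 fold change was 0.07. The shares of 12.5% higher and 6.25% lower lay below the 19.3% and 18.4% of all genes tested. TNFRSF6B encodes a secreted decoy that binds FAS ligand and TNFSF15. It had 11, 14 and 4 counts in vehicle and 833, 475 and 863 after guadecitabine (log2 fold change 6.53, edgeR adjusted p = 1.41e-06). Its counts came from 109 bp of exon, and every stretch of 50 bases of its transcript is also part of the readthrough transcript RTEL1-TNFRSF6B, so that TNFRSF6B and the readthrough cannot be told apart. CD40, a receptor for T cell help, had a log2 fold change of 0.34 (edgeR adjusted p = 0.0349), a call lost in 8 of 13 alternatives. Without vehicle replicate 3, 5 other receptors were higher and 2 lower, and CD40 was not among them (0.26, edgeR adjusted p = 0.0957). TNFRSF8, chosen after its values were seen, had 224 counts in vehicle replicate 3, and its log2 fold change went from 0.40 (edgeR adjusted p = 0.798) to 4.46 (edgeR adjusted p = 1.13e-05) without that library.

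**Figure D3:**
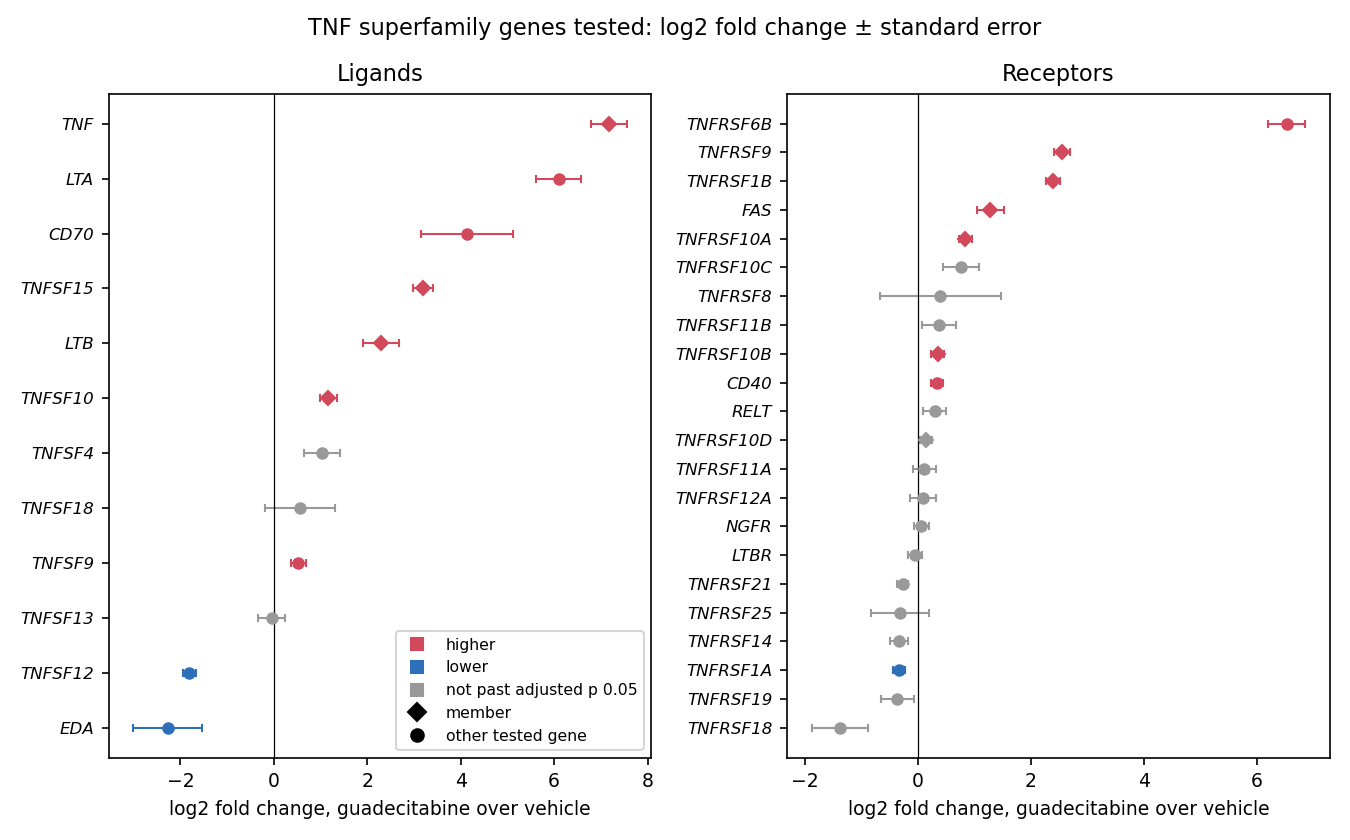
Log2 fold change of guadecitabine over vehicle with its standard error for every TNF superfamily ligand (left) and receptor (right) that passed the filter, with diamonds for the 10 genes described and circles for the others. TNF at 7.17 and LTA at 6.10 led the ligands, TNFSF12 at -1.81 and EDA were lower (the call of EDA was lost or had no value in 8 of 13 alternatives), and among receptors TNFRSF6B at 6.53, TNFRSF9 at 2.55 and TNFRSF1B at 2.40 lay farthest to the right.

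The death-inducing complex and the caspases it feeds shifted by smaller amounts. Of 14 genes tested, 9 were higher, 2 lower and 3 did not pass the test, with a median log2 fold change of 0.39. The shares were 64.3% higher and 14.3% lower, against 19.3% and 18.4% of all genes tested. Without guadecitabine replicate 3, 5 of the genes were higher. CFLAR, whose product FLIP blocks caspase-8 activation at the receptor, rose by 0.82 on the log2 scale (edgeR adjusted p = 0.000711). CASP8, the initiator caspase, rose by 0.59 (edgeR adjusted p = 0.00537), and CASP10, its close relative, had a log2 fold change of 0.21 (edgeR adjusted p = 0.614). FADD, the adaptor between death receptors and caspase-8, fell by 0.68 on the log2 scale (edgeR adjusted p = 0.0019). BID, which carries the signal to mitochondria, rose by 0.65 (edgeR adjusted p = 0.0018). DFFB, the nuclease that cuts DNA in apoptosis, fell by 0.90 on the log2 scale (edgeR adjusted p = 0.0106).

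The ratio of CFLAR to CASP8 was also read within libraries, in reads per kb. Its log2 value was -1.10, -1.06 and -1.25 in vehicle replicates 1, 2 and 3 and -1.01, -0.93 and -0.74 after guadecitabine. The guadecitabine values lay above the vehicle values in all 3 libraries, with means of -0.89 ± 0.139 and -1.14 ± 0.10 (SD, n = 3, difference 0.25, exact permutation test, two-sided p = 0.1, the smallest possible).

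Of 21 genes of the TNF receptor signalling complex, 10 were higher, 2 lower and 9 did not pass the test. Their median log2 fold change was 0.45. The shares were 47.6% higher and 9.52% lower, against 19.3% and 18.4% of all genes tested. The 3 largest rises were in TNFAIP3, an editing enzyme of ubiquitin chains that ends the signal, with 2.87 (edgeR adjusted p = 5.73e-06), BIRC3, a ubiquitin ligase of the complex, with 2.51 (edgeR adjusted p = 7.92e-05), and TRAF1, an adaptor of TNFRSF1B and TNFRSF9, with 2.17 (edgeR adjusted p = 2.28e-06). These 3 are also NF-κB targets and stand in both lists. TAB1, a partner of the kinase TAK1, fell by 1.04 on the log2 scale (edgeR adjusted p = 0.000306), and IKBKB, a kinase of the NF-κB inhibitors, fell by 0.31 (edgeR adjusted p = 0.045), a call lost in 10 of 13 alternatives.

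A list of 20 genes known to be induced by TNF through NF-κB was measured in full, of which 18 were higher, 0 lower and 2 (CCL2 and TNFAIP6) did not pass the test. Their median log2 fold change was 2.34. The shares were 90% higher and 0% lower, against 19.3% and 18.4% of all genes tested. TNFAIP6 had 0, 0 and 25 counts in vehicle replicates 1, 2 and 3 and 16, 13 and 20 after guadecitabine (edgeR adjusted p = 0.356). Without vehicle replicate 3, which held all of its vehicle counts, it passed with 7.14 (edgeR adjusted p = 0.000791), which made 19 of 20 higher. No vehicle counts of TNFAIP6 are left in that fit, so 7.14 does not measure the size of the change. CCL20 had the largest value with 9.72 (edgeR adjusted p = 4.20e-08), followed by CXCL1 with 6.62 (edgeR adjusted p = 2.17e-08) and CXCL8 with 5.54 (edgeR adjusted p = 4.52e-08), all of them chemokines. CCL20 was close to undetected in vehicle, with 3, 1 and 3 counts against 2071, 1132 and 1698 after guadecitabine, so the size of its fold change is uncertain. It had no value when 10 counts were required in every library. These genes answer to many signals besides TNF, and the part of TNF in their rise was not tested.

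Of the necroptosis genes MLKL, the protein that breaks the membrane, rose by 0.99 on the log2 scale (edgeR adjusted p = 0.00045), while RIPK3, the kinase upstream of it, had a log2 fold change of 1.56 without passing the test (edgeR adjusted p = 0.0852). RIPK3 had 7, 4 and 27 counts in vehicle replicates 1, 2 and 3 and 35, 18 and 32 after guadecitabine. It passed without vehicle replicate 3, with 2.50 (edgeR adjusted p = 0.000736). ZBP1 was left out by the filter, so that 2 necroptosis genes were tested. Among 5 genes that govern shedding of ligands and receptors, ADAM10, a shedding protease, fell by 0.66 (edgeR adjusted p = 0.00488) and TIMP3, an inhibitor of such proteases, by 0.47 (edgeR adjusted p = 0.00504). RHBDF2, which brings ADAM17 to the cell surface, rose by 0.33 (edgeR adjusted p = 0.0447), a call lost in 9 of 13 alternatives. The other 2 did not pass the test. The shares higher and lower were 50% and 0% in necroptosis and 20% and 40% in shedding. Over all genes tested they were 19.3% and 18.4%.

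**Figure D4:**
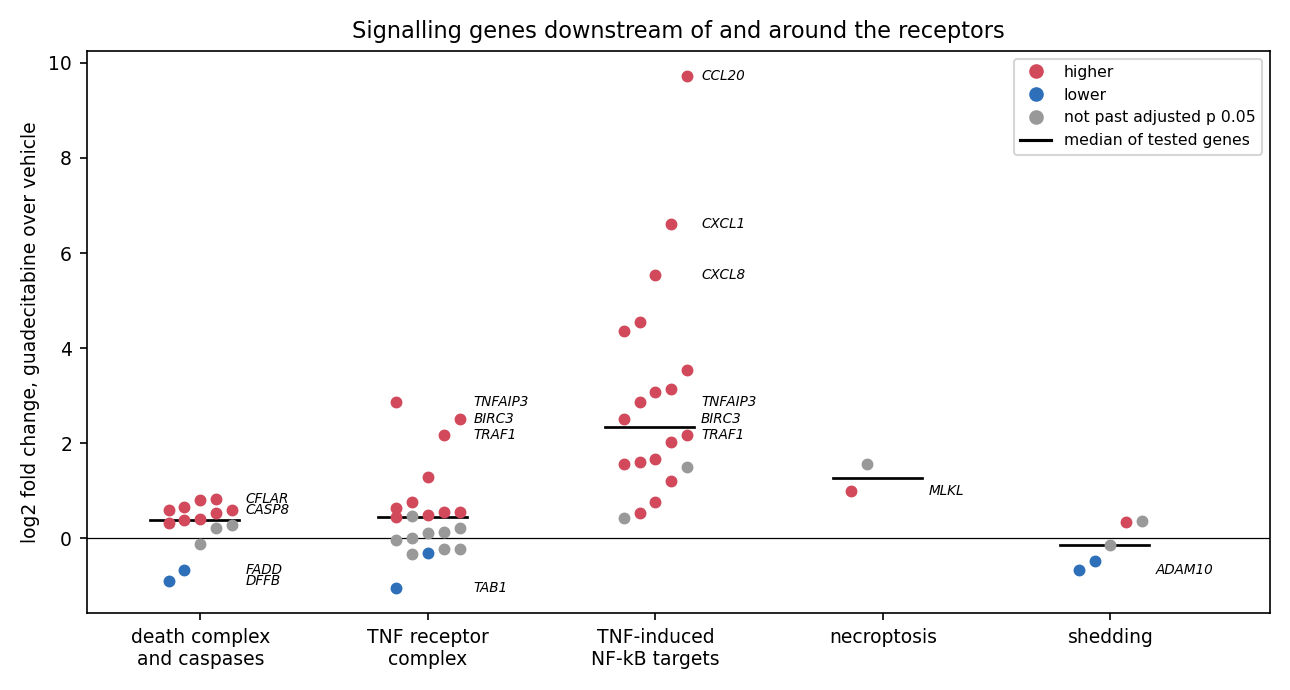
Log2 fold change of guadecitabine over vehicle for the tested genes of 5 signalling lists, 1 point per gene, coloured by the test at an adjusted p of 0.05, with the median of each list as a line. The medians were 0.39 for the death complex and caspases, 0.45 for the TNF receptor complex and 2.34 for the NF-κB targets. They were 1.28 for necroptosis, with only 2 tested genes of which RIPK3 did not pass, and -0.13 for shedding. TNFAIP3, BIRC3 and TRAF1 are drawn in both lists that hold them.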

How the data were processed

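The data were RNA sequencing libraries of MDA-MB-231 cells, 3 of vehicle and 3 of guadecitabine, grouped by their labels. The authors prepared the libraries with the TruSeq RNA kit, aligned the reads to hg19 with STAR (2.3.1z per the submitters' processing notes) and deposited raw counts of exon reads per RefSeq transcript, made with iRNA-seq. The deposited table also holds the authors' regularized log2 values from DESeq2 and the fold change, standard error and p-values of their comparison, which were not used.

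The test was that of edgeR 4.0.16 under R 4.3.3 (quasi-likelihood, TMM, filterByExpr with a minimum count of 10, Benjamini-Hochberg adjustment over the 13322 genes kept, threshold 0.05). SE values were derived from the F statistic. On simulated counts of 13146 genes for this comparison, 169 of 193 changed genes were recovered, with 10 false calls. The simulation changed 200 genes before the filter, each by at least 2-fold, and held no library like vehicle replicate 3. In the data 37.7% of genes tested passed, so these figures do not give the error rates of the comparison itself. Counts were normalized by TMM to the average total of 17911210 and divided by the deposited counted exon length for reads per kb. The smallest exact permutation p with 3 against 3 is 0.1. Totals ranged from 8792127 to 22277442 counts, the floor was 3 counts in a library, and PCR reads are not independent molecules, so floors cover counting error only.

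All 10 genes are named, with up to 3 genes of each list with the highest and up to 3 with the lowest log2 fold change among other genes past the threshold with a mean normalized count of at least 50, and always TNFRSF1A, TNFRSF10C, FASLG, LTA, FADD, CASP8, CASP10 and CFLAR. CD70, EDA, TNFSF4, TNFAIP6, CSF1R, CD14, TNFRSF8, TNFRSF25, RIPK3, PTPRC and genes listed in a count of 5 or fewer fall outside this rule and were chosen after their values were seen. The genes and lists were chosen with earlier results of these data known, and no list was tested as a set. The values of 1 gene that the rule names are not reported here. The alternatives were DESeq2 1.42.0, other scalings and filters, a test against a 2-fold change, the replicate number as a block, shares without division by exon length and each library left out in turn. Leaving out vehicle replicate 3 and guadecitabine replicate 2 together was added after seeing the data. Counts out of 13 alternatives include that fit but not the test against a 2-fold change.

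Sequence was read with Python 3.11.15 from GRCh37, the assembly of hg19, at the deposited starts, and compared with the RefSeq promoter table, whose windows were placed on GRCh37 by their sequence. Gene models for overlaps came from GENCODE release 44 on GRCh37. Protein, methylation and cell death were not analysed here.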

Additional observations from a re-analysis of the deposited data

How the results depend on the processing

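No fold change of the 10 genes and no ratio changed sign in any alternative. Apart from the 2-fold test and the filter of 10 counts in every library, under which TNF had no value, the call changed for TNFRSF10B alone of the 10 genes. Its log2 fold change was 0.35 with the replicate block, 0.34 with the size factors of DESeq2, 0.36 with no filter, 0.21 without vehicle replicate 3 and guadecitabine replicate 2 together (added after seeing the data), and 0.27 to 0.44 with 1 library left out, and it no longer passed the threshold in these fits except without vehicle replicate 1. Tested against a 2-fold change, 5 of the 10 genes were higher (TNFSF10, FAS, TNFRSF10A and TNFRSF10B no longer passed), with 435 genes higher and 261 lower over all genes, 1 higher and 1 lower among the other ligands, 1 and 0 among the other receptors, 0 and 0 in the death complex, 3 and 0 in the TNF receptor complex, 0 higher in necroptosis and 0 and 0 in shedding.

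With 1 library left out, 8 to 9 of the 10 genes were higher. Over all genes there were 1706 to 3002 higher and 1629 to 2575 lower, the lowest of each without guadecitabine replicate 3. The other ligands had 1 to 3 higher (1 without guadecitabine replicate 3) and 1 to 2 lower (2 only without vehicle replicate 3), the other receptors 1 to 5 higher and 0 to 2 lower, the death complex 5 to 9 higher (5 without guadecitabine replicate 3), the TNF receptor complex 1 to 2 lower (2 only without guadecitabine replicate 1), necroptosis 1 to 2 higher (2 without vehicle replicate 3) and shedding 0 to 1 higher. With the replicate block and with no filter alike, there were 1 lower ligand, 1 higher and 0 lower receptors, 1 lower gene in the TNF receptor complex and 0 higher in shedding. Requiring 10 counts in every library gave 1 lower ligand and 2 higher shedding genes, library totals only gave 1 lower gene in the TNF receptor complex, and the DESeq2 test gave 3 lower receptors. Without vehicle replicate 3 and guadecitabine replicate 2 there were 3587 genes higher and 3059 lower over all genes, 5 lower receptors, 1 lower gene in the TNF receptor complex and 2 higher in necroptosis. The causes were not tested.

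Same-numbered libraries did not deviate together (correlations across genes of -0.05, 0.05 and -0.04), so the numbers were not taken as pairs, and with the block 8 of the 10 genes were higher. With 3 libraries a group, the exact tests of shares cannot fall below 0.1, or 0.25 with the replicate block. Counts under 20 in every vehicle library limit the fold changes of TNF, LTA, CCL20, TNFRSF6B and CD70. All of them passed the filter on low counts only through their guadecitabine libraries.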
